A study of Mus musculus with 14 samples.

Results

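The transcriptome of mouse lineage-negative bone marrow cells carrying SETBP1-D868N was compared with that of cells carrying luciferase, in 6 of the 14 sequenced libraries of the study. Lineage-negative cells are what remains of bone marrow once mature blood cells have been removed, and they are rich in stem and progenitor cells. The members of the comparison were all genes of the count table that passed an expression filter, 15794 of 55367. Cells of wild-type genotype were transduced with a lentivirus carrying either luciferase, the control (3 libraries), or the mutant SETBP1-D868N (3 libraries), and were grown with the cytokines SCF, IL6 and IL3. Both groups therefore kept their own Setbp1 genes, and both had passed through viral transduction and the same culture. Each library was made from polyadenylated RNA, from 500 ng of total RNA. The time between transduction and harvest, the strain and the age of the animals are not given in the sources used here. Nothing in the labels says that the 3 libraries of a group came from separate animals, so p-values measure the spread between these samples, which may be technical.

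SETBP1 is a nuclear protein that binds the protein SET, an inhibitor of the phosphatase PP2A, and that also contacts chromatin. It holds a short degron, a stretch by which a ubiquitin ligase recognises it for breakdown, and D868N lies in that stretch. Substitutions there slow the loss of the protein and recur in atypical chronic myeloid leukaemia and related myeloid neoplasms. In culture with SCF, IL6 and IL3, marrow progenitors give rise mainly to neutrophils, macrophages, mast cells and basophils, so the RNA of such a culture mixes progenitors with their maturing offspring.

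The libraries held 60147266 to 68730322 counts. Levels are given as CPM, the usual rate of a gene's counts relative to the total of the library, after scaling by TMM (trimmed mean of M-values). A count of 0 allowed up to 0.0436 to 0.0499 CPM before that scaling, by counting error alone. The mouse Setbp1 gene had 5, 6 and 6 counts with luciferase and 23, 20 and 24 counts with SETBP1-D868N. All libraries with the mutant were above all with luciferase (log2 fold change 1.91, SE 0.35, edgeR adjusted p 6.60e-04). Whether these few counts came from the cells' own Setbp1 or from the introduced SETBP1-D868N is not known. The luciferase libraries took 7.11% to 7.30% of their counts from their 10 most abundant genes and those with SETBP1-D868N 5.69% to 6.15%. Mitochondrial genes held 1.39% to 1.72% and 1.56% to 1.98% of counts. Of 9136 genes with at least 10 CPM on average in the luciferase group, 28 were over 1.5-fold higher in luciferase 1 than the mean of the other two, against 0 in luciferase 2 and 0 in luciferase 3. In SETBP1-D868N 3, 9 of 9058 genes were over 1.5-fold lower than the mean of the other two, and in SETBP1-D868N 1 and 2 the number was 1 and 4.

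Markers of progenitors were present in both groups, with Kit at 177, 181 and 183 CPM with luciferase and 118, 112 and 114 CPM with SETBP1-D868N. Cd34 was at 64.8, 68.8 and 68.8 CPM with luciferase and 86.6, 76.9 and 80.3 CPM with SETBP1-D868N. Of 9 marker genes of mature T, B and NK cells none had more than 21 counts in a library, with at most 3 counts of Cd3e and at most 1 of Cd8a. Of 6 stromal and endothelial markers 4 had at most 10 counts, among them Cdh5, Col3a1 and Emcn. The other two were Col1a1, with 120 to 284 counts, and Pdgfrb, at 13.3, 12.8 and 12.4 CPM with luciferase and 15.4, 13.8 and 17.9 CPM with SETBP1-D868N. Markers of maturing myeloid cells were abundant in both groups. In bulk RNA, fewer cells of a type and less RNA per cell cannot be told apart, and this holds for every cell type list below.

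The first question was how far the change extends and how large it is. A gene was called when its Benjamini-Hochberg adjusted p in edgeR's quasi-likelihood test was under 0.05. By this rule 47.2% of the tested genes were called, 24.5% as higher and 22.7% as lower with SETBP1-D868N. Higher genes made up 51.9% of the calls. That share was 50.3% with RLE size factors, another scaling, and 48.6% with DESeq2, another tool (3308 higher and 3496 lower). With scaling by library size alone, which takes no account of the makeup of the library, 4905 were called higher and 2997 lower, and the share of higher genes was 62.1%. The 3 libraries of one group did not overlap with those of the other in 8961 genes, 56.7% of those tested. Most called genes moved little. Their absolute log2 fold change was below 0.25 in 3250 genes (43.6% of calls) and between 0.25 and 0.5 in 2249.

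The direction of the calls depended on their size. Among called genes below 0.25 on the log2 scale, 2122 were higher and 1128 lower. Between 0.5 and 1, 364 were higher and 982 lower, and between 1 and 2, 150 were higher and 365 lower. At 2 and above, a change of at least 4-fold, the balance turned, with 61 genes higher and 27 lower. A stricter test asked for a change beyond 1.5-fold (edgeR glmTreat, adjusted p under 0.05) and was passed by 482 genes (3.05% of those tested), 159 that were higher (1.01%) and 323 that were lower (2.05%). Called genes with a fold change of at least 2 numbered 211 higher (1.34%) and 392 lower (2.48%). Such genes were found at every level of abundance: below 1 CPM 63 rose and 58 fell beyond 1.5-fold, from 10 to 100 CPM 33 rose and 120 fell, and at 100 CPM and above 6 rose and 19 fell. The share of genes called at all rose with abundance, from 18.1% below 1 CPM to 65.6% at 100 CPM and above, as the median standard error dropped from 0.31 to 0.029.

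**Figure D1:**
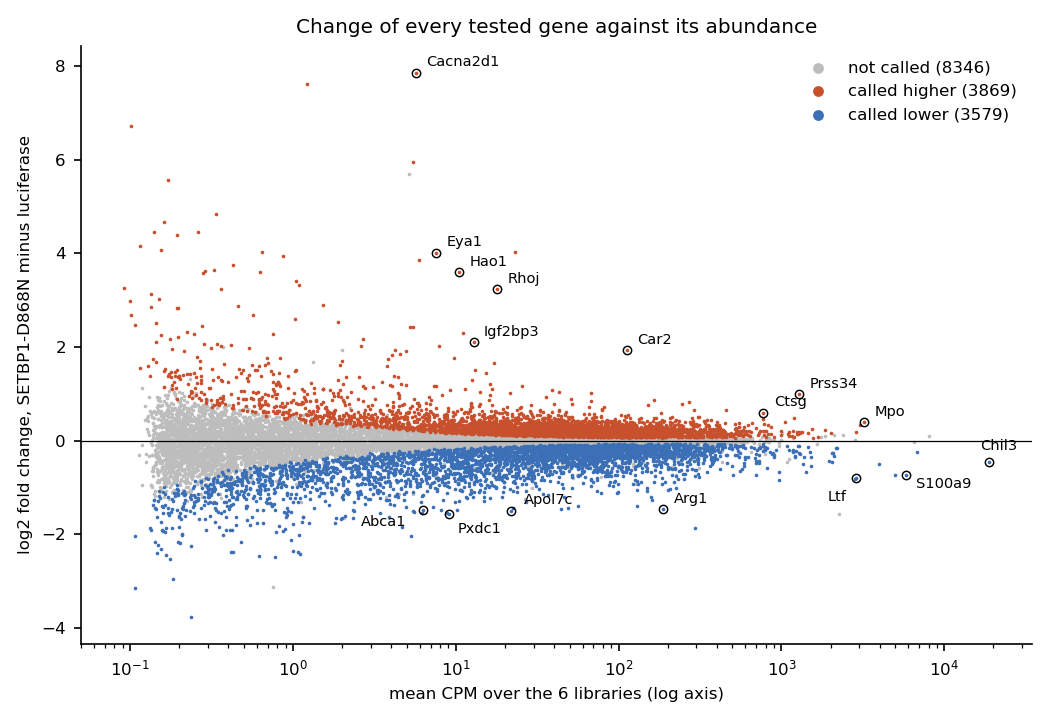
Each point is 1 of the 15794 tested genes, with its mean CPM over the 6 libraries on the log-scaled horizontal axis and its log2 fold change (SETBP1-D868N minus luciferase) on the vertical axis. Called genes are coloured, circles mark named genes, and the largest rises lie well above the largest falls among genes above 1 CPM.

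Protein-coding genes made up 12929 of the tested genes and 53.3% of them were called. Long noncoding RNAs were called in 22.7% of 1571 cases and pseudogenes in 10.2% of 865. Among protein-coding genes the calls were spread over the genome: per chromosome, 22.7% to 32.9% of tested genes were higher and 21.6% to 30.4% were lower. Divided by exon length into 4 classes of nearly equal size, protein-coding genes had median log2 fold changes of 0.014, 0.040, 0.022 and −0.045 from the shortest class to the longest. The median of the longest class was −0.023 without luciferase 1. Without SETBP1-D868N 1 the medians were −0.0091, 0.026, 0.018 and −0.029, so that of the shortest class changed sign.

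The genes that rose most, outside the HOX-A cluster, came from several unrelated families. The rule took the 12 called genes with the largest fold change, at least 5 CPM in the higher group and no overlap between groups, and 11 of them are described here. Cacna2d1, an auxiliary subunit of voltage-gated calcium channels, stood far above the rest with 0.0596, 0.0461 and 0.0337 CPM with luciferase and 10.1, 12.1 and 11.9 CPM with SETBP1-D868N (log2 fold change 7.86, SE 0.18, edgeR adjusted p 1.10e-10). Its luciferase values rest on 4, 3 and 2 counts. Eya1, a phosphatase and transcriptional coactivator, was at 0.715, 0.875 and 1.08 CPM with luciferase and 14.6, 14.4 and 13.9 CPM with SETBP1-D868N (log2 fold change 4.02, SE 0.11, edgeR adjusted p 2.41e-10). In both genes the groups were apart by a wide gap, with the highest luciferase library far below the lowest with the mutant.

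Hao1, a peroxisomal hydroxyacid oxidase best known from liver, was at 1.68, 1.72 and 1.36 CPM with luciferase and 16.8, 18.8 and 22.2 CPM with SETBP1-D868N (log2 fold change 3.59, SE 0.13, edgeR adjusted p 1.12e-07). Rhoj, a small GTPase known from endothelium, was at 3.26, 3.67 and 3.39 CPM with luciferase and 31.8, 32.1 and 33.8 CPM with SETBP1-D868N (log2 fold change 3.24, SE 0.059, edgeR adjusted p 1.29e-11). Adgrl4, an adhesion receptor of endothelial cells, was at 1.35, 1.87 and 1.87 CPM with luciferase and 9.66, 8.96 and 8.81 CPM with SETBP1-D868N (log2 fold change 2.43, SE 0.12, edgeR adjusted p 2.75e-08). The endothelial markers Cdh5 and Emcn held at most 10 counts and 1 count in any library, and their part in the rise of Rhoj and Adgrl4 was not tested.

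Igf2bp3, an RNA-binding protein of fetal cells, was at 4.85, 4.85 and 4.89 CPM with luciferase and 21.03, 21.5 and 20.1 CPM with SETBP1-D868N (log2 fold change 2.10, SE 0.055, edgeR adjusted p 2.41e-10). The 3 libraries of each group were nearly level in this gene, which overlaps Malsu1 on the opposite strand. Spin4, a member of the spindlin family of histone readers, was at 3.83, 3.76 and 3.71 CPM with luciferase and 17.6, 18.6 and 19.1 CPM with SETBP1-D868N (log2 fold change 2.29, SE 0.062, edgeR adjusted p 2.41e-10), and Tmem215, a transmembrane protein, was at 3.57, 3.13 and 2.68 CPM with luciferase and 13.7, 11.5 and 12.8 CPM with SETBP1-D868N (log2 fold change 2.01, SE 0.10, edgeR adjusted p 6.08e-08). Cd27, a receptor of the TNF receptor family found on lymphocytes and some progenitors, was at 1.73, 1.72 and 1.79 CPM with luciferase and 6.98, 6.54 and 6.51 CPM with SETBP1-D868N (log2 fold change 1.94, SE 0.093, edgeR adjusted p 2.75e-08). The most abundant of the 12 was Car2, a cytosolic carbonic anhydrase made early in the red cell lineage, at 48.0, 45.6 and 45.9 CPM with luciferase and 183, 174 and 175 CPM with SETBP1-D868N (log2 fold change 1.93, SE 0.033, edgeR adjusted p 1.20e-11). The adult globin gene Hbb-bt was at 2.03, 2.26 and 1.94 CPM with luciferase and 8.79, 6.56 and 8.17 CPM with SETBP1-D868N (log2 fold change 1.92, SE 0.12, edgeR adjusted p 2.43e-07).

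The 12 genes that fell most had smaller fold changes than those that rose, between −1.84 and −1.46 on the log2 scale. Neb, a giant actin-binding protein of muscle, was at 10.04, 5.68 and 6.03 CPM with luciferase and 1.77, 1.68 and 2.65 CPM with SETBP1-D868N (log2 fold change −1.84, SE 0.32, edgeR adjusted p 0.00695). Luciferase 1 was the highest library, and without it the log2 fold change was −1.52. Arg1, the arginase of alternatively activated macrophages, was the most abundant of the 12 with 258, 283 and 287 CPM with luciferase and 93.3, 108 and 101 CPM with SETBP1-D868N (log2 fold change −1.46, SE 0.063, edgeR adjusted p 3.41e-06). Abca1, the exporter of cellular cholesterol, was at 10.6, 8.98 and 8.29 CPM with luciferase and 2.94, 3.87 and 3.24 CPM with SETBP1-D868N (log2 fold change −1.47, SE 0.12, edgeR adjusted p 2.51e-06). The absence of overlap between the groups in these genes was a condition of their choice, not a result.

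Apol7c, an apolipoprotein L of dendritic cells, was at 34.2, 31.4 and 31.5 CPM with luciferase and 11.5, 11.04 and 11.9 CPM with SETBP1-D868N (log2 fold change −1.49, SE 0.052, edgeR adjusted p 2.72e-09). Asgr2, a subunit of the asialoglycoprotein receptor, was at 12.9, 13.4 and 12.99 CPM with luciferase and 3.87, 4.22 and 5.41 CPM with SETBP1-D868N (log2 fold change −1.54, SE 0.10, edgeR adjusted p 7.70e-07). Mrgpra6, a Mas-related receptor, was at 8.04, 8.23 and 8.22 CPM with luciferase and 2.59, 2.81 and 3.12 CPM with SETBP1-D868N (log2 fold change −1.52, SE 0.089, edgeR adjusted p 1.11e-07). These 3 encode proteins of the cell surface or of lipid handling, and Asgr2 lies next to Clec10a, another lectin gene that fell beyond 1.5-fold (−0.84). The growth factor gene Fgf2, which overlaps Nudt6 on the opposite strand, was at 7.58, 7.82 and 8.80 CPM with luciferase and 3.06, 2.81 and 2.67 CPM with SETBP1-D868N (log2 fold change −1.50, SE 0.094, edgeR adjusted p 2.00e-07). Car8, a carbonic anhydrase relative without catalytic activity, was at 14.2, 15.0 and 15.7 CPM with luciferase and 5.93, 5.49 and 4.79 CPM with SETBP1-D868N (log2 fold change −1.47, SE 0.078, edgeR adjusted p 5.95e-08), in contrast to the rise of Car2. The other four were Mcpt-ps1 (−1.64), a mast cell protease pseudogene, Pxdc1 (−1.56), Adam23 (−1.53), a cell-adhesion protein of the ADAM family, and Ankrd37 (−1.47), an ankyrin-repeat gene induced in hypoxia. The changes of Neb and Ankrd37 did not pass the test beyond 1.5-fold, with adjusted p of 0.10 and 0.059 in edgeR's glmTreat.

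**Figure D2:**
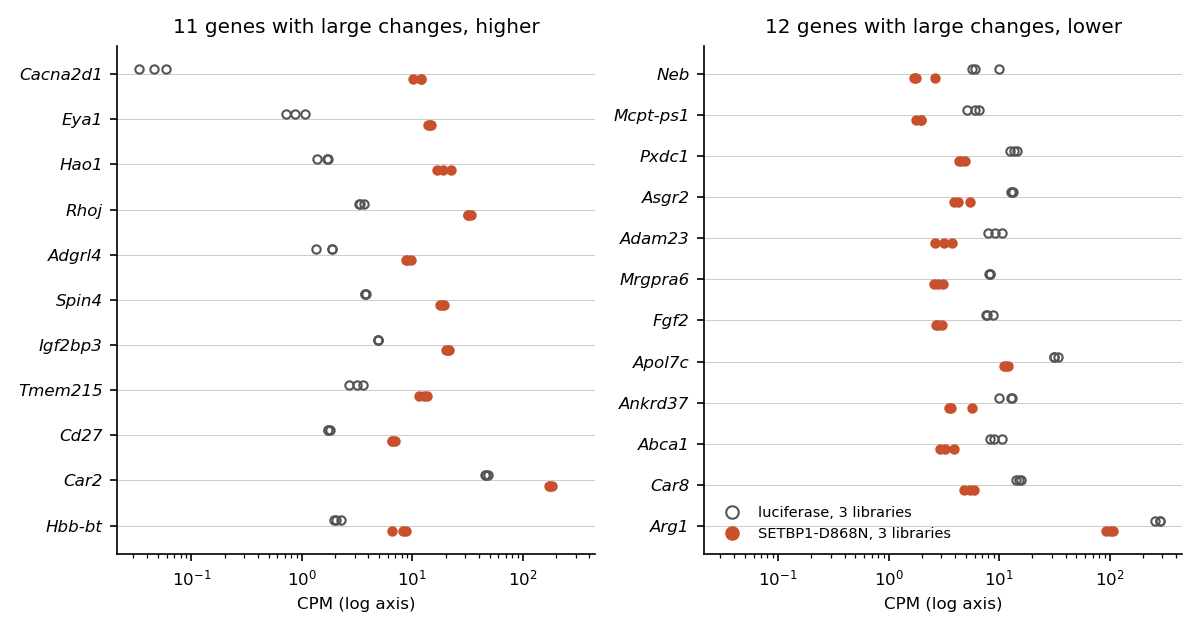
CPM of each library on a log axis for 11 of the 12 genes with the largest rises (left) and the 12 with the largest falls (right), open circles for luciferase and filled circles for SETBP1-D868N. Groups without overlap were a condition of the choice of these genes, and the gap is widest for Cacna2d1.

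A second view takes the called genes whose share of all counts moved most, whatever their fold change. The largest gain was that of Mpo, myeloperoxidase of primary neutrophil granules, with 2667, 2848 and 2767 CPM with luciferase and 3639.7, 3625 and 3664 CPM with SETBP1-D868N (log2 fold change 0.40, SE 0.027, edgeR adjusted p 3.07e-07). Prss34, a serine protease of basophils and mast cells, was at 862, 848 and 854 CPM with luciferase and 1724, 1671 and 1746 CPM with SETBP1-D868N (log2 fold change 1.00, SE 0.025, edgeR adjusted p 1.63e-10). The basophil protease Mcpt8 (log2 fold change 0.48), the primary granule protease Ctsg (0.60), the nucleolar protein Ncl (0.40) and the chaperones Calr (0.33), Hspa8 (0.23) and Hsp90ab1 (0.20) followed. Ncl and Hspa8 host small nucleolar RNAs on their own strand. To be called was a condition of the choice of these 8, and none but Prss34 passed the test beyond 1.5-fold.

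Of the 8 genes with the largest losses, 5 belong to the list of later neutrophil granules given below. Chil3, a chitinase-like protein of neutrophils and macrophages, gave the largest loss with 22316, 21156 and 21690.0 CPM with luciferase and 15148, 16580.0 and 15574 CPM with SETBP1-D868N (log2 fold change −0.46, SE 0.034, edgeR adjusted p 1.15e-06). The calcium-binding alarmin S100a9 was at 7189, 7340.4 and 7243 CPM with luciferase and 4749, 4483 and 3838 CPM with SETBP1-D868N (log2 fold change −0.74, SE 0.084, edgeR adjusted p 0.00152), and its partner S100a8 had a log2 fold change of −0.81. Ltf, lactoferrin of secondary granules, was at 3482, 3726 and 3757 CPM with luciferase and 2251, 2173 and 1909.8 CPM with SETBP1-D868N (log2 fold change −0.79, SE 0.070, edgeR adjusted p 2.82e-04). Ngp (−0.74), the lysosomal protein Psap (−0.49), lysozyme Lyz2 (−0.66) and the cytoskeletal gene Actb (−0.24) made up the rest. In S100a9, Ltf and Ngp the lowest library was SETBP1-D868N 3. In each of the 8 the groups did not overlap, as in 56.7% of all tested genes, and to be called was a condition of their choice.

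To describe the rest of the transcriptome by function, 29 lists of genes (653 genes) were used. Each list is given by its members called in each direction and its median log2 fold change, beside the same for all tested genes: 24.5% higher, 22.7% lower and a median of 0.0043. The lists were drawn up with earlier results of these data known, and no test of a list was made.

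Genes of the stem cell and early progenitor state moved in both directions. Of 30 tested members, 18 were higher and 7 lower (median 0.23). Hmga2, a chromatin protein of fetal stem cells, was at 4.36, 4.64 and 4.60 CPM with luciferase and 11.3, 9.51 and 9.64 CPM with SETBP1-D868N (log2 fold change 1.16, SE 0.083, edgeR adjusted p 5.17e-07). Meis1, a HOX cofactor, rose by 1.09 and the most abundant member Gata2, a factor of early progenitors and mast cells, by 0.21 on the log2 scale. Surface genes went the other way: Ly6a, which encodes the stem cell antigen Sca-1, was at 11.3, 11.96 and 12.8 CPM with luciferase and 5.75, 6.45 and 4.49 CPM with SETBP1-D868N (log2 fold change −1.11, SE 0.12, edgeR adjusted p 4.64e-05). Kit, the receptor for SCF, fell by 0.66 in log2 fold change, and the surface genes Robo4 (−1.55), Slamf1 (−0.89), Procr (−0.41) and Flt3 (−0.29) and the transcription factor gene Mycn (−0.45) fell as well. Cd34, another surface marker of progenitors, rose by 0.27. The 7 members lower thus include 6 that encode surface proteins, counted after their values were seen.

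Developmental regulators outside the HOX-A cluster were mostly low in counts. Of 10 tested members of the list that holds the HOX-B, HOX-C and EYA genes and some of their partners, 5 were higher and 1 lower (median 0.29), and the other 10 of the 20 did not pass the filter. Six4 was at 2.00, 1.44 and 1.89 CPM with luciferase and 6.31, 5.76 and 6.89 CPM with SETBP1-D868N (log2 fold change 1.83, SE 0.13, edgeR adjusted p 3.91e-07). Six5 (0.33) and Hoxb2 (1.25) rose as well, the latter on 3 to 19 counts per library. The call of Hoxb2 was lost without luciferase 3, SETBP1-D868N 1 or SETBP1-D868N 2 (adjusted p 0.0625 to 0.0844). Eya2 fell by 0.71 while Eya1 rose, so the 2 paralogs moved in opposite directions.

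Lineage transcription factors of the myeloid cells were lower more often than higher. Of 24 tested, 5 were higher and 13 lower (median −0.15). Those that rose were Cebpa (0.52), the factor that starts granulocyte formation, Gfi1 (0.31), Gfi1b (0.56), Runx2 (0.56) and Etv6 (0.15). Cebpa was at 257, 257 and 259 CPM with luciferase and 380.1, 352 and 374 CPM with SETBP1-D868N. The largest falls were those of Bcl6 (−0.79), Maf (−0.77) and Irf5 (−0.61). Bcl6 was at 34.2, 33.6 and 34.6 CPM with luciferase and 19.2, 21.2 and 18.7 CPM with SETBP1-D868N. The most abundant member, Ikzf1, was not called (log2 fold change 0.060).

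Neutrophil granule genes were called in different directions by the stage at which their products are made. Primary granules are filled in promyelocytes, and secondary and tertiary granules later, as the cells mature. Of 17 members of the primary granule list 11 were higher and 4 lower (median 0.12), while all 25 genes of later granules and mature neutrophils were lower (median −0.66). Ctsg, cathepsin G, was at 610.5, 621 and 619 CPM with luciferase and 958, 934 and 910.2 CPM with SETBP1-D868N (log2 fold change 0.60, SE 0.025, edgeR adjusted p 1.25e-08). The members of the primary granule list that fell were Fcnb (−0.77), Lyz2 (−0.66), Mgst2 (−0.37) and Igsf6 (−0.28). Membership of the list does not by itself place a gene's product in the granule. Among the later genes, Retnlg, a resistin-like protein, was at 12.7, 15.9 and 15.7 CPM with luciferase and 6.69, 5.70 and 5.73 CPM with SETBP1-D868N (log2 fold change −1.29, SE 0.10, edgeR adjusted p 4.64e-06). The surface marker Ly6g (−0.90) and the gelatinase Mmp9 (−0.87) followed. With any 1 library left out, 24 or 25 of the 25 later genes were called lower.

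**Figure D3:**
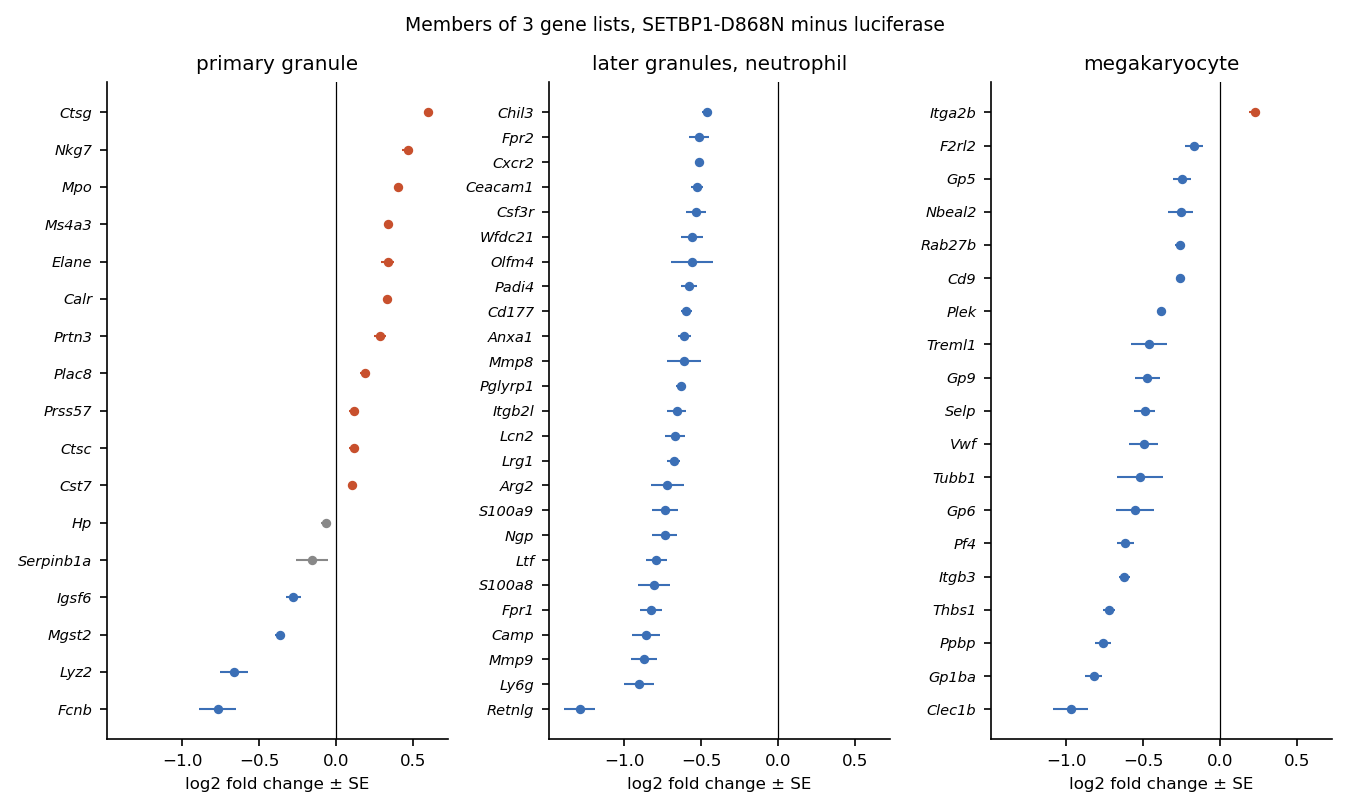
Log2 fold change of each tested member with its standard error, for primary granule genes, genes of later granules and mature neutrophils, and megakaryocyte genes, coloured as called higher, called lower or not called (grey). Ctsg leads the primary granule list at 0.60, and every gene of the later granules lies below 0.

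Genes of macrophages and dendritic cells were mostly called lower. Of 25 monocyte and macrophage genes 22 were lower and 0 higher (median −0.62). C1qa, a chain of complement C1q, was at 17.8, 19.6 and 19.3 CPM with luciferase and 9.14, 9.97 and 7.50 CPM with SETBP1-D868N (log2 fold change −1.09, SE 0.093, edgeR adjusted p 1.25e-05), and its partner C1qc fell by 0.99. Vcan, a matrix proteoglycan of monocytes, had a log2 fold change of −0.94 (edgeR adjusted p 0.0426). That call was lost without luciferase 1, luciferase 2, luciferase 3, SETBP1-D868N 1 or SETBP1-D868N 2 (adjusted p 0.0895 to 0.128). The most abundant member was Lgals3, a galectin of macrophages (−0.64).

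The list of dendritic cell and MHC class II genes had the lowest median of the 29, −0.84, with 17 of 22 lower, 1 higher, and 10 lower beyond 1.5-fold. MHC class II molecules show peptides to helper T cells, and their genes are switched on together by the coactivator Ciita. H2-Eb1 was at 184, 167 and 172 CPM with luciferase and 78.8, 87.5 and 85.8 CPM with SETBP1-D868N (log2 fold change −1.05, SE 0.048, edgeR adjusted p 1.98e-07). Cd74, the invariant chain, was the most abundant member and fell by 0.84, and Ciita itself was at 75.7, 66.6 and 66.7 CPM with luciferase and 31.9, 33.2 and 38.1 CPM with SETBP1-D868N (log2 fold change −1.02, SE 0.084, edgeR adjusted p 1.08e-04). Ccr7, which guides dendritic cells to lymph nodes, was at 69.3, 61.9 and 61.4 CPM with luciferase and 27.9, 27.3 and 28.5 CPM with SETBP1-D868N (log2 fold change −1.20, SE 0.047, edgeR adjusted p 8.91e-09). Cd86, a costimulatory protein, fell by 1.05. The single member that rose was Tcf4 (0.27), a factor of plasmacytoid dendritic cells.

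Among interferon-stimulated genes most calls were lower. Of 35 members 21 were lower and 1 higher (median −0.59). Ifit1, a sensor of foreign RNA, was at 2.46, 4.10 and 3.93 CPM with luciferase and 1.42, 1.96 and 1.10 CPM with SETBP1-D868N (log2 fold change −1.23, SE 0.27, edgeR adjusted p 0.00728), and Oasl1 was at 1.46, 2.29 and 2.38 CPM with luciferase and 0.945, 1.24 and 0.633 CPM with SETBP1-D868N (log2 fold change −1.12, SE 0.26, edgeR adjusted p 0.00692). Ifi27l2a had a log2 fold change of −1.02 with an edgeR adjusted p of 0.0329, and its call was lost without luciferase 1, luciferase 2, luciferase 3 or SETBP1-D868N 1 (adjusted p 0.0637 to 0.0934). The most abundant member, Stat2, a signal carrier of the interferon receptor, fell by 0.31. Gbp3 was the member that rose (0.48). In SETBP1-D868N 3 several members were far below the other libraries with the mutant: Rsad2, not called, was at 4.90, 6.54 and 7.04 CPM with luciferase and 3.17, 3.82 and 1.45 CPM with SETBP1-D868N. Rtp4, Oasl2 and Oas2 had the same order and were not called either. Without SETBP1-D868N 3 the log2 fold change of Ifit1 was −1.05, and 24 members were called lower. The lower calls of this list numbered 18 without luciferase 2, luciferase 3 or SETBP1-D868N 1. They numbered 26 with DESeq2, 27 with no robust estimation and 29 with limma-voom.

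The promoters of interferon-stimulated genes and MHC class II genes carry known control elements, and 5 are shown to let these be seen next to the values above. They run from 250 bases before the start of the gene to 50 after it, 5′ to 3′ on the gene's strand, from RefSeq on GRCm38.p6. Capitals mark matches on either strand to GAAA followed after any 2 bases by GAAA, the core of the interferon-stimulated response element, in Ifit1, Oas3 and Isg15. In H2-Eb1 and H2-Aa capitals mark GATTGG, the core of the Y box, and an X box pattern, AGNAAC joined directly to NGATG. In Isg15 matches to the interferon core overlap each other and form 1 run.
Ifit1: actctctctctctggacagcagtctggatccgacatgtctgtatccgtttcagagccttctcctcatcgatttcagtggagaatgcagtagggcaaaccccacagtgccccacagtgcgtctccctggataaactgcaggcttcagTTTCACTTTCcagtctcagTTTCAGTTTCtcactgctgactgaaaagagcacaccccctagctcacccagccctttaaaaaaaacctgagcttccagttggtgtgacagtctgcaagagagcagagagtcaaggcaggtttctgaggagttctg
Oas3: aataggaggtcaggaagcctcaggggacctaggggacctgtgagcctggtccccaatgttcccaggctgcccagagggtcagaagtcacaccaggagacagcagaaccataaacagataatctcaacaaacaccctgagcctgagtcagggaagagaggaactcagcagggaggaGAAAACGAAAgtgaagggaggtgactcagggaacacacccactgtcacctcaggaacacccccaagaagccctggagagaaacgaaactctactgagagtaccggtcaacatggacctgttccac
Isg15: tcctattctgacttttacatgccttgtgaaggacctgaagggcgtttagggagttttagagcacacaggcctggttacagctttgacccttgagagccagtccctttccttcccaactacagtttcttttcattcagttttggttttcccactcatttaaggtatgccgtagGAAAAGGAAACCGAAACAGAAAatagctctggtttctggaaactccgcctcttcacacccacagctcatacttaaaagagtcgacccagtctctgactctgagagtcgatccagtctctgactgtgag
H2-Eb1: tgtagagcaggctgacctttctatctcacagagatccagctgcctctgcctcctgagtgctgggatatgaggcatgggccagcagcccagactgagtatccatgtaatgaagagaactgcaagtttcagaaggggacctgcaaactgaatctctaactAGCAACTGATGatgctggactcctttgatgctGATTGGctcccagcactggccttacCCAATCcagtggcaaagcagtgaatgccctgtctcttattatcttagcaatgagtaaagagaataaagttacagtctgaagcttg
H2-Aa: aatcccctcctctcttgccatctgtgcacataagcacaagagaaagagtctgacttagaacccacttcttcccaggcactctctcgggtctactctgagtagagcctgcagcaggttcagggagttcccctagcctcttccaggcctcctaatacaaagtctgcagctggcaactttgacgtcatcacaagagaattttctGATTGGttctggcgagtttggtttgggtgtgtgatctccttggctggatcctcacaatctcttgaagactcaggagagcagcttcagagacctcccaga

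These windows lie at chr19:34640639-34640938, plus strand (Ifit1), chr5:120777610-120777909, minus strand (Oas3), chr4:156200769-156201068, minus strand (Isg15), chr17:34305617-34305916, plus strand (H2-Eb1) and chr17:34287774-34288073, minus strand (H2-Aa). The interferon core was found in 1131 of 32851 promoters of this length (3.44%) and in 15 of the 24 interferon-stimulated genes with a promoter in the table (62.5%). Of the 15 genes with a match 9 were lower and 1 higher (median −0.54), and of the 9 without a match 5 were lower (median −0.49). GATTGG was in 16.1% of all promoters and the X box pattern in 0.298%, the latter in H2-Eb1 and H2-DMb1 of the 15 dendritic cell and MHC class II genes with a promoter. The MHC motifs were chosen after the values were seen. Oas3 was at 28.9, 35.2 and 37.4 CPM with luciferase and 20.7, 21.8 and 13.9 CPM with SETBP1-D868N and Isg15 at 4.91, 6.22 and 5.90 CPM with luciferase and 4.04, 4.31 and 3.34 CPM with SETBP1-D868N, both called lower (−0.85 and −0.54). The call of Oas3 was lost without luciferase 2, luciferase 3, SETBP1-D868N 1 or SETBP1-D868N 2 (adjusted p 0.0504 to 0.0967). H2-Aa was at 309, 295 and 292 CPM with luciferase and 139, 153 and 153 CPM with SETBP1-D868N (−1.01).

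Mast cell and basophil genes, tryptases aside, split within the list. Of 25 members 7 were higher and 15 lower (median −0.38). Prss34 and Mcpt8, both proteases of basophils, rose as given above, and Ms4a2, the beta chain of the IgE receptor, rose by 0.65 and Gzmb, granzyme B, by 0.65. Hdc (0.12), Cd200r3 (0.14) and Slc18a2 (0.16) were higher by less. The alpha chain of the same IgE receptor, Fcer1a, fell by 0.68. The mast cell chymase Mcpt4 was at 23.6, 28.6 and 26.9 CPM with luciferase and 13.5, 15.2 and 11.2 CPM with SETBP1-D868N (log2 fold change −0.99, SE 0.13, edgeR adjusted p 0.00118), and Cpa3, mast cell carboxypeptidase and the most abundant member, was at 1726, 1818 and 1824 CPM with luciferase and 1269, 1262 and 1165 CPM with SETBP1-D868N (log2 fold change −0.54, SE 0.036, edgeR adjusted p 6.80e-07). Mrgprb1, a Mas-related receptor gene, was at 0.774, 1.398 and 0.960 CPM with luciferase and 0.274, 0.0459 and 0.241 CPM with SETBP1-D868N (log2 fold change −2.47, SE 0.44, edgeR adjusted p 0.00145), and the related Mrgprb2 had 17, 26 and 40 counts with luciferase and 0, 2 and 4 counts with SETBP1-D868N. The groups overlapped in neither of these low-count genes.

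Eosinophil genes were mostly called lower, with 8 of 13 lower and 1 higher (median −0.40). The abundant eosinophil markers Epx and Prg2 were not called (log2 fold change 0.0071 and −0.35). Epx was at 338, 313 and 312 CPM with luciferase and 345, 286 and 337 CPM with SETBP1-D868N. Prg2 was called lower with DESeq2 and limma-voom. Cd101 (−0.84), the ribonuclease Ear1 (−0.80) and the most abundant member Alox5ap (−0.40), which assists leukotriene synthesis, fell. Ccr3, the eotaxin receptor, was the exception at 0.759, 0.8293 and 1.25 CPM with luciferase and 3.29, 2.97 and 2.98 CPM with SETBP1-D868N (log2 fold change 1.71, SE 0.17, edgeR adjusted p 6.67e-06).

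Red cell genes and megakaryocyte genes were mostly called in opposite directions. Of 15 tested erythroid genes 8 were higher and 0 lower (median 0.34), while of 19 megakaryocyte genes 1 was higher and 18 were lower (median −0.49). Car1, another carbonic anhydrase of early red cells, was at 0.968, 1.11 and 0.842 CPM with luciferase and 4.69, 4.45 and 4.07 CPM with SETBP1-D868N (log2 fold change 2.17, SE 0.13, edgeR adjusted p 1.49e-07). Klf1, the master factor of the red cell lineage, was at 2.96, 2.58 and 3.61 CPM with luciferase and 5.94, 6.10 and 5.83 CPM with SETBP1-D868N (0.97), and the erythropoietin receptor Epor rose by 0.65. The most abundant member was the transferrin receptor Tfrc (0.17). Genes of late red cells differed among themselves. Hbb-bt rose as given above, on 115 to 147 counts with luciferase and 429 to 577 with the mutant, whereas its close copy Hbb-bs, not called, had 5 to 17 counts per library, and how the counting divided their reads is not known. Alas2, with 5 to 14 counts, did not pass the filter, and Hba-a1, with 18 to 31, was not called. Ermap (−0.35), not called over all libraries with edgeR, was called lower without SETBP1-D868N 3, with DESeq2 and with no filter. The erythroid median was 0.22 without luciferase 1, 0.54 without luciferase 3 and 0.17 with no filter.

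Among megakaryocyte genes Clec1b, a platelet receptor for podoplanin, was at 6.92, 8.91 and 6.99 CPM with luciferase and 3.99, 4.16 and 3.48 CPM with SETBP1-D868N (log2 fold change −0.97, SE 0.11, edgeR adjusted p 2.68e-05). Clec1b overlaps the dendritic cell gene Clec9a (−1.29) on the same strand. How the counting divided the reads of Clec1b and Clec9a is not known. Gp1ba (−0.82), a subunit of the von Willebrand factor receptor, and the chemokine Ppbp (−0.76) followed. Thbs1, thrombospondin, the most abundant member, fell by 0.73, and 4 members were lower beyond 1.5-fold. Itga2b, the platelet integrin chain CD41, was the single member that rose (209, 218 and 223 CPM with luciferase and 264, 239.7 and 256 CPM with SETBP1-D868N).

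Lymphoid genes gave 3 higher and 6 lower of 13 tested, and 10 of 23 did not pass the filter. Dntt, the terminal transferase of early lymphoid cells, was at 1.95, 1.52 and 1.77 CPM with luciferase and 0.762, 0.550 and 0.392 CPM with SETBP1-D868N (log2 fold change −1.62, SE 0.22, edgeR adjusted p 6.79e-05). Il7r, the receptor for IL7, fell by 0.80, and the T-box factor gene Eomes fell by 0.56. The members that rose were Lck (0.50), Igll1 (1.501) and Rag2, the last of which had 1, 1 and 1 counts with luciferase and 11, 10 and 12 counts with SETBP1-D868N. Of the stromal and endothelial list 7 of 20 were tested, with 0 lower and 3 higher (median 0.21), namely Plvap (0.84), Col1a2 (0.77) and Pdgfrb (0.29). Without SETBP1-D868N 3 the members Kdr (−0.55 over all libraries) and Col1a1 (−0.56) were called lower. Col1a1 was also called lower with DESeq2, limma-voom, no filter and no robust estimation, and Kdr with RLE size factors. Without luciferase 1 the lower lymphoid calls numbered 3, and without SETBP1-D868N 1 the higher stromal calls numbered 1, those of Pdgfrb and Col1a2 being lost. The call of Pdgfrb was also lost without luciferase 2 or 3 (adjusted p 0.0545 to 0.0773 over the 3 cases).

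Genes for growth and DNA synthesis were mostly called higher, by small amounts. Of 23 genes of nucleolar ribosome assembly 20 were higher and 0 lower (median 0.42). Wdr12, a factor of the large ribosomal subunit, was at 53.8, 52.97 and 52.4 CPM with luciferase and 81.5, 79.6 and 76.4 CPM with SETBP1-D868N (log2 fold change 0.58, SE 0.033, edgeR adjusted p 9.19e-08). Gnl3, nucleostemin, rose by 0.51 and Ppan by 0.50. Of 25 DNA replication genes 23 were higher and 0 lower (median 0.19). Mcm2, part of the replicative helicase, was at 255, 257 and 261 CPM with luciferase and 318, 309.5 and 313 CPM with SETBP1-D868N (log2 fold change 0.28, SE 0.024, edgeR adjusted p 1.98e-06), and the members Mcm10 (0.27) and Mcm6 (0.26) moved by like amounts.

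Mitosis and the ribosome itself gave smaller medians. Of 24 mitosis genes 11 were higher and 1 lower (median 0.076), with Ccnb1, a mitotic cyclin, higher by 0.18, Hmmr by 0.17, while Kif23, a kinesin of cell division, fell by 0.16. Top2a, the most abundant member, was not called (0.032), and its value was −0.026 without SETBP1-D868N 3. The higher mitosis calls numbered 7 without luciferase 2, 7 without luciferase 3 and 7 with DESeq2. Of 24 cytosolic ribosomal protein genes 5 were called higher and 0 lower, with Rps2 (0.15) the largest and a median of 0.029. With DESeq2 1 was higher, Rps2, and 1 was lower, Rplp1. The higher count was 10 with scaling by library size alone (median 0.078), and from 1 (without luciferase 2) to 8 (without SETBP1-D868N 2) with 1 library left out. Without SETBP1-D868N 1 it was 2 and the median was −0.0038, and it was 2 without luciferase 1, 3 without luciferase 3 and 3 without SETBP1-D868N 3. The median was 0.062 without SETBP1-D868N 2, 0.044 without luciferase 1 and 0.016 without luciferase 3. Respiratory chain genes gave 11 higher and 0 lower of 23 (median 0.077), led by cytochrome c, Cycs (0.28).

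Glycolysis and hypoxia-responsive genes were mostly called lower. Of 22 members 19 were lower and 0 higher (median −0.40). Bnip3, a mitochondrial protein of the hypoxia response, was at 87.8, 104 and 107 CPM with luciferase and 38.5, 42.4 and 59.8 CPM with SETBP1-D868N (log2 fold change −1.08, SE 0.21, edgeR adjusted p 0.0147), and Egln3, an oxygen-sensing hydroxylase, was at 143, 171 and 170.3 CPM with luciferase and 81.3, 85.6 and 106 CPM with SETBP1-D868N (log2 fold change −0.83, SE 0.14, edgeR adjusted p 0.00886). The most abundant member, Gapdh, fell by 0.26. The number called lower depended on the libraries, with 17 without luciferase 1, 11 without luciferase 2, 10 without luciferase 3, 12 without SETBP1-D868N 1, 9 without SETBP1-D868N 2 and 21 without SETBP1-D868N 3. SETBP1-D868N 3 was the highest library with the mutant for Bnip3 and Egln3. The call of Bnip3 was lost without luciferase 2, luciferase 3 or SETBP1-D868N 2 (adjusted p 0.0521 to 0.0560).

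Other metabolic lists held few large changes and some single genes that stood apart. Of 23 genes of cholesterol synthesis and uptake 12 were lower and 3 higher (median −0.093), with Fdps (−0.51) and Pmvk (−0.31), both enzymes of the mevalonate route, falling most. Dhcr7 (0.090), an enzyme of the last steps of synthesis, was among those that rose. Its call was lost without luciferase 2, luciferase 3 or SETBP1-D868N 1 (adjusted p 0.0534 to 0.129). Of 22 genes of the ATF4 pathway and amino acid supply 11 were higher and 3 lower (median 0.14). Cth, an enzyme of cysteine synthesis, was at 1.52, 1.26 and 1.72 CPM with luciferase and 2.59, 3.39 and 3.19 CPM with SETBP1-D868N (log2 fold change 1.03, SE 0.15, edgeR adjusted p 1.38e-04), while Ddit4, an inhibitor of mTORC1, was at 44.5, 48.2 and 46.6 CPM with luciferase and 27.7, 25.4 and 32.6 CPM with SETBP1-D868N (log2 fold change −0.70, SE 0.091, edgeR adjusted p 8.49e-04). Vldlr (−0.65) and Trib3 (−0.22) fell as well. The call of Vldlr was lost without luciferase 1, luciferase 2, luciferase 3, SETBP1-D868N 1 or SETBP1-D868N 2 (adjusted p 0.0507 to 0.119). That of Trib3 was lost without luciferase 2, luciferase 3, SETBP1-D868N 1 or SETBP1-D868N 2 (adjusted p 0.0705 to 0.182). The lower calls of this list numbered 1 without luciferase 3, SETBP1-D868N 1 or SETBP1-D868N 2 and with scaling by library size alone, and 5 with DESeq2, which added Slc7a11 and Stc2.

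The p53 targets and CDK inhibitors showed no common direction, with 5 higher and 8 lower of 22 and a median of −0.0066. Trp53inp1 (−0.52) and Plk2 (−0.50) fell, and Cdkn1c rose by 0.74. The groups overlapped in Cdkn1c, and its call was lost without luciferase 1, luciferase 3, SETBP1-D868N 1 or SETBP1-D868N 2 (adjusted p 0.0683 to 0.0867). With scaling by library size alone 8 were higher and 5 lower and the median was 0.043, and without luciferase 3 the lower calls numbered 5. The median was also above 0 without luciferase 1 (0.050) and without SETBP1-D868N 3 (0.00027).

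Genes of signalling and response to stimuli were lower in most cases. Of 22 immediate early genes, which cells switch on within minutes of a signal, 16 were lower and 2 higher (median −0.41). Nr4a3, an orphan nuclear receptor, was at 42.9, 33.8 and 33.2 CPM with luciferase and 14.4, 17.4 and 20.2 CPM with SETBP1-D868N (log2 fold change −1.08, SE 0.17, edgeR adjusted p 0.00643), and Jun, a subunit of AP-1, was at 43.9, 47.5 and 43.7 CPM with luciferase and 25.4, 26.4 and 23.4 CPM with SETBP1-D868N (log2 fold change −0.85, SE 0.051, edgeR adjusted p 1.47e-07). Egr1 and Fosl1, another AP-1 subunit, rose by 0.53 and 0.75. Of 20 genes for cytokine receptors and STAT feedback 15 were lower (median −0.26). Csf2rb, the shared beta chain of the receptors for IL3, IL5 and GM-CSF, was at 1532, 1557 and 1533 CPM with luciferase and 1162, 1217 and 1261 CPM with SETBP1-D868N (log2 fold change −0.34, SE 0.030, edgeR adjusted p 2.07e-06), and its relative Csf2rb2, which serves IL3 alone, fell by 0.58. Both genes are close copies, and how the counting divided their reads is not known. Il3ra, the alpha chain of the IL3 receptor, rose by 0.23, and Bcl2, which restrains cell death, by 0.29.

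Chemokines and cytokines gave 15 lower and 3 higher of 23 (median −0.24). Ccl5 (−1.19), Ccl8 (−1.09) and Cxcl16 (−1.004) fell most, and Ccl4 (0.19), Tgfb1 (0.20) and Cxcl3 (0.45) rose. Toll-like and Fc receptor genes gave 18 lower and 1 higher of 23 (median −0.33). Tlr2, a sensor of bacterial lipopeptides, was at 90.4, 96.4 and 97.4 CPM with luciferase and 50.8, 54.5 and 54.2 CPM with SETBP1-D868N (log2 fold change −0.83, SE 0.039, edgeR adjusted p 2.21e-08), Tlr13 (−0.82) and Tlr9 (−0.80) fell as well, and Tlr1 rose (0.33). Lysosome genes gave 17 lower and 2 higher of 23 (median −0.24), with the protease Ctss (−0.75) first, and Gaa (0.25) and Cd63 (0.095) higher. The call of Cd63 was lost without luciferase 2, luciferase 3 or SETBP1-D868N 1 (adjusted p 0.0696 to 0.0769). Finally, of 12 genes for SETBP1, SET and PP2A subunits 5 were higher and 1 lower, with Set at 446, 457 and 452 CPM with luciferase and 588, 569 and 579 CPM with SETBP1-D868N (log2 fold change 0.36, SE 0.024, edgeR adjusted p 3.12e-07) and the catalytic subunit Ppp2ca higher by 0.12. The lower member was Ppp2r5c (−0.11), whose call was lost without luciferase 3 (adjusted p 0.0661), and without luciferase 1 Ppp2r5a was lower as well.

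**Figure D4:**
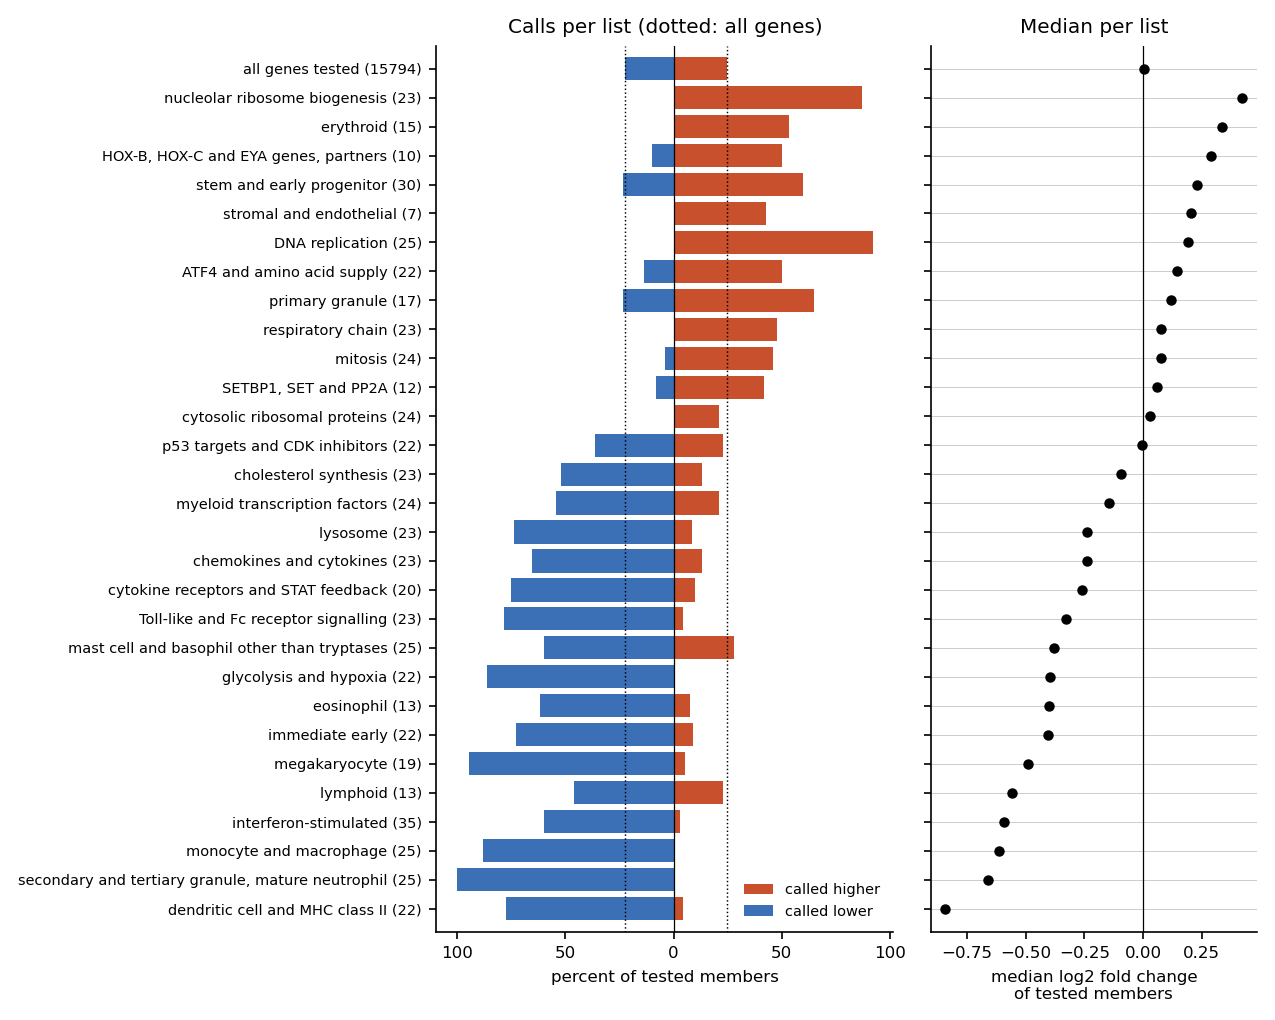
For all tested genes (top) and each of 29 gene lists (tested members in brackets), the left panel gives the percent of tested members called higher (right of 0) and lower (left of 0), with dotted lines at the 24.5% and 22.7% of all genes, and the right panel the median log2 fold change. Lists run from nucleolar ribosome biogenesis at 0.42 down to dendritic cell and MHC class II at −0.84.

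Genes that changed beyond 1.5-fold were in some places neighbours on the chromosome. Of 136 protein-coding genes that rose beyond 1.5-fold, HOX-A genes included, 19 had another within 100000 bases that also rose and 8 had one that fell. Of 293 that fell, 41 had a neighbour that also fell and 8 one that rose. The same count was not made for all tested genes, so whether these numbers exceed the share among genes at large is not known. The distance and the examples below were chosen after the values were seen. On chromosome 3 (GRCm38), Car1 (14766216 to 14808368), Car3 (14863512 to 14872523) and Car2 (14886273 to 14900770) rose by 2.17, 2.60 and 1.93, while Car13, the next gene on one side (14641727 to 14663002), rose by 0.19. That call of Car13 was lost without luciferase 3, SETBP1-D868N 1 or SETBP1-D868N 2 (adjusted p 0.0526 to 0.0620).

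On chromosome 10, Ahi1 (20952547 to 21080429) and Myb (21124935 to 21160984) lie 44506 bases apart and rose by 1.66 and 0.82. Ahi1, a gene of the primary cilium, was at 8.08, 8.43 and 8.14 CPM with luciferase and 24.9, 25.9 and 26.9 CPM with SETBP1-D868N. Myb, a transcription factor that progenitors need to divide, was at 190.3, 198 and 201 CPM with luciferase and 359, 350.5 and 332 CPM with SETBP1-D868N, and Hbs1l on its other side (21295979 to 21368898) rose by 0.25. On chromosome 16 the stefin A genes Stfa2l1, Stfa1, Stfa2 and Stfa3, inhibitors of cysteine proteases, had log2 fold changes of −0.92, −0.64, −1.11 and −1.30. They are near copies of one another, so their separate values are uncertain. On chromosome 17, H2-Ab1, H2-Aa, H2-Eb1 and H2-Eb2 had log2 fold changes of −1.05, −1.01, −1.05 and −1.27. Neighbours could also part: Prss34 rose by 1.00 while Tpsab1, 43080 bases away, fell by 2.03, and beside Cacna2d1 on chromosome 5 (15934691 to 16374511) the growth factor gene Hgf (16553495 to 16620152) fell by 0.38.

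**Figure D5:**
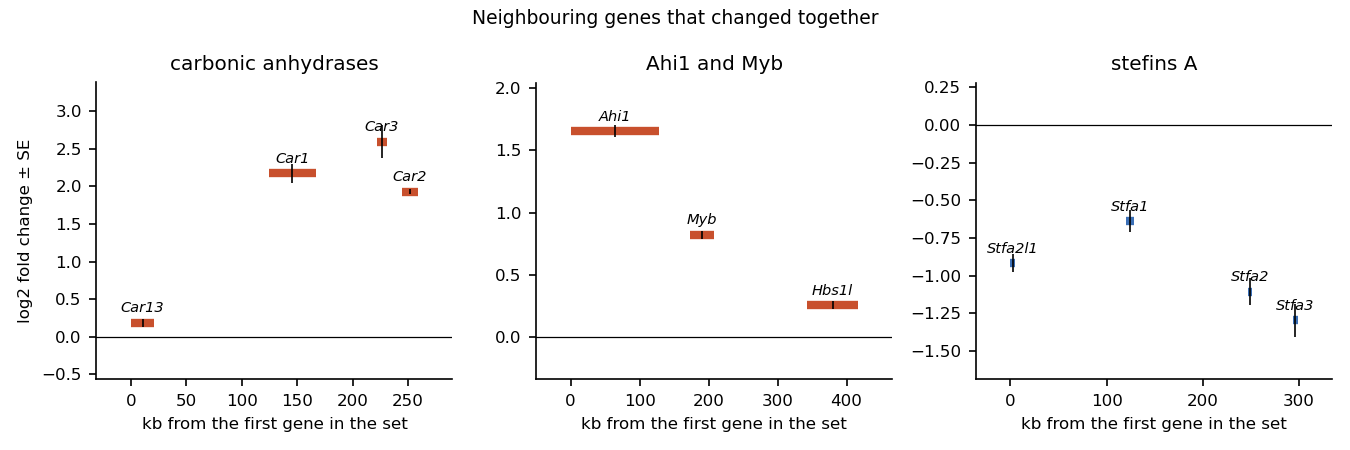
Log2 fold change with standard error of the tested genes in 3 gene neighbourhoods, each drawn at its position in kb from the start of the first gene (bar length is the gene's length). Car1, Car3 and Car2 lie near 2 or above while Car13 is at 0.19, Ahi1 exceeds Myb, and all 4 stefin A genes are below 0.

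A second experiment of the study gave a further reading of the genes with the largest changes. There, lineage-negative marrow cells transduced with SETBP1-D868N received either DMSO, the solvent (4 libraries), or 2.5 µM PF-9363 (4 libraries) over 4 days. PF-9363 inhibits acetyltransferases of the MYST family, which acetylate histones. All 8 libraries carried the mutant, none is shared with the comparison above, they were made from 100 ng of total RNA, and they held 7083731 to 10359093 counts. Mutant cells with DMSO were in some genes at other levels than the mutant cells above. Car2 had a mean of 29.3 CPM with DMSO against 177 CPM there, and Arg1 565 CPM against 101 CPM. Neb was closer, at 2.41 CPM against 2.03 CPM. With PF-9363 a share of 36.6% of tested genes was called higher and 39.4% lower, by the same rule. Of the 12 genes with the largest rises 11 were tested there, and 6 fell with PF-9363, 1 rose and 4 were not called. Of the 12 with the largest falls 11 were tested, and 9 rose and 2 fell.

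Adgrl4 was at 5.95, 5.49, 5.24 and 4.08 CPM with DMSO and 0.927, 0.902, 0.311 and 0.325 CPM with PF-9363 (log2 fold change −3.01, SE 0.34, edgeR adjusted p 4.65e-09). Hao1 (−3.18), Tmem215 (−1.62), Igf2bp3 (−1.20), Spin4 (−0.84) and Cd27 (−0.73) fell as well. The call of Cd27 with PF-9363 was lost when any 1 library except DMSO 1 or PF-9363 4 was left out (adjusted p 0.0511 to 0.146). Hbb-bt was the one that rose (1.15). The genes not called were Cacna2d1 (−0.13), Eya1 (−0.030), Rhoj (0.0032) and Car2 (−0.18), of which Cacna2d1 and Eya1 had the largest rises with SETBP1-D868N. The sign of Cacna2d1, Eya1 and Rhoj changed with single libraries left out, and that of Rhoj with other settings. Eya1 was at 27.3, 30.1, 27.0 and 27.5 CPM with DMSO and 26.0, 26.2, 26.5 and 30.8 CPM with PF-9363, and the groups overlapped.

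Among the genes that had fallen, Mrgpra6 (3.26), Neb (3.08), Mcpt-ps1 (2.93) and Abca1 (2.89) rose most with PF-9363. Abca1 was at 5.06, 7.98, 7.77 and 6.99 CPM with DMSO and 49.2, 48.3, 53.4 and 55.3 CPM with PF-9363 (log2 fold change 2.89, SE 0.12, edgeR adjusted p 1.51e-18). Arg1 (1.31), Pxdc1 (1.99), Car8 (2.09), Fgf2 (1.37) and Apol7c (1.26) rose as well. The 2 that fell in both comparisons were Ankrd37 (−3.96) and Asgr2 (−1.46). The call of Asgr2 with PF-9363 was lost without DMSO 4 (adjusted p 0.0527). Adam23 did not pass the filter in these libraries.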

How the data were processed

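The authors deposited whole-number counts per gene, not normalized, for 6 libraries of the SETBP1-D868N experiment and 8 of the PF-9363 experiment. The submitters' processing notes name STAR, DESeq2 and the builds GRCm38 and mm10; the annotation, the counter and whether it used strand are not given in the sources used here, so overlapping genes are uncertain. Columns were matched to samples by name, with 0 left unmatched. Genes passed filterByExpr (minimum count 10, minimum total 15) and were tested in edgeR 4.0.16 (R 4.3.3) with TMM scaling, robust quasi-likelihood fits and Benjamini-Hochberg adjustment over all genes, within each experiment alone. glmTreat tested changes beyond 1.5-fold. limma 3.58.1 and DESeq2 1.42.0 served as alternatives. Intervals and floors (3 counts) cover counting error only, since no molecular identifiers are recorded.

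Named genes were first the 12 called genes per direction with the largest fold change. These had at least 5 CPM in the higher group and groups apart, with HOX-A and tryptase genes left out. The 8 called genes per direction with the largest change in CPM were named as well, and in each list the leading genes at 1 CPM or more. Some genes that these rules take are not reported here. Other genes were named after their values were seen. The members and the lists were chosen with earlier results of these data known. Gene positions and overlaps came from the GENCODE M21 annotation of GRCm38, with 15501 of the tested genes matched (98.1%), and promoters from RefSeq (GRCm38.p6).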

Additional observations from a re-analysis of the deposited data

Results flagged for a closer look

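The genes described with the largest changes, 11 that rose and 12 that fell, were examined in the groups of 4 libraries of the PF-9363 experiment, 46 groups in all. In 7 groups 1 library stood apart, by Dixon's test on its gap to the nearest library over the range of the group, and chance gives about 1 such group in 20. Eya1 was high in DMSO 2, at 30.13 CPM, and in PF-9363 4, at 30.8 CPM, the second while Eya1 was not called. PF-9363 4 was also high for Cd27, at 3.254 CPM. DMSO 4 was high for Mcpt-ps1, at 2.177 CPM, and for Asgr2, at 2.177 CPM. PF-9363 3 was high for Pxdc1, at 12.3 CPM, and for Car8, at 9.028 CPM. The groups of 3 libraries with luciferase and SETBP1-D868N were too small to be examined in this way.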

How the results depend on the processing

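With luciferase and SETBP1-D868N, 0 of the called genes changed sign under the alternatives (other scaling, filters, tools, robust estimation, replicate block, each library left out). The number beyond 1.5-fold depended most on the test: 103 higher with DESeq2, 101 higher and 169 lower with limma-voom, 775 higher and 1402 lower with a threshold of 1.2-fold, and 55 higher and 37 lower with one of 2-fold. Of the 482 such genes, 314 remained beyond 1.5-fold with DESeq2 and 266 with limma-voom. With 1 library left out, 3330 to 3606 genes were called higher and 3106 to 3480 lower, and 121 to 137 higher and 227 to 301 lower passed beyond 1.5-fold.

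Libraries with the same number did not deviate together (r of −0.097, −0.037 and −0.087). With 3 libraries a group these values cannot exclude a pairing, and the labels do not state one. With the replicate block 3416 genes were called higher and 3224 lower, and 124 and 258 passed beyond 1.5-fold. The calls of Ifi27l2a, Nr4a3, Oas3, Vcan and Dhcr7 were lost with it, Ermap was called lower and the mitosis list had 7 higher calls, while those of Ifi27l2a, Oas3 and Vcan were lost without a filter. Vldlr, Trib3 and Ppp2r5c were lost with scaling by library size alone, Trib3 also with limma-voom and without robust estimation, Hoxb2, Rpl4, Rpl8, Rpsa and Dhcr7 with DESeq2, and Rpl8 also with RLE size factors, limma-voom, a mean count of at least 10 and no robust estimation.

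Over all alternatives the calls of 18 named genes were lost in 77 cases and 20 gained a call in 61. List medians moved by more than their spread between libraries in 67 cases and stayed within it in 339. Scaling by library size alone raised the median gene by 0.049 and moved the medians of the mitosis list to 0.12, the respiratory chain list to 0.13, the cholesterol list to −0.044 and the myeloid factor list to −0.098, with 3 higher calls among Toll-like and Fc receptor genes and 8 higher and 0 lower in the SETBP1, SET and PP2A list. Top2a ranged from −0.026 to 0.080 with 1 library left out. For PF-9363 Rhoj was −0.22 by library size alone, −0.018 with no filter and −0.020 with limma-voom, and from −0.067 to 0.15 with 1 library left out. In the same way Cacna2d1 ranged from −0.31 to 0.072 and Eya1 from −0.086 to 0.0038. Cd27 with PF-9363 was lost with DESeq2 and RLE size factors. Gm3222 ranged from −0.50 to 2.44 and Gm9619 from −0.083 to 6.28, lowest without SETBP1-D868N 1. The causes were not tested. Depth limits the genes below 1 CPM, where the median standard error was 0.31.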

Other observations

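The values below were chosen after they were seen and belong to no comparison. Klhl4, below the level asked of named genes, had 0.030, 0 and 0 CPM with luciferase and 2.83, 2.49 and 1.96 CPM with SETBP1-D868N. Luciferase 1 was high for several long or nuclear transcripts. Malat1, a nuclear noncoding RNA, was at 230.4 CPM there against 139.6 and 137 CPM in the other luciferase libraries and 84.5 to 95.8 CPM with SETBP1-D868N. Syne2, which encodes a giant protein of the nuclear envelope, was at 55.7 CPM against 31.0 and 30.9 CPM, and Abca13 and Rnf213 were at 85.7 and 128 CPM against 56.5 to 56.6 and 83.7 to 84.1 CPM. Rn7sk, a small nuclear RNA, was at 6.43 CPM against 1.84 and 1.11 CPM.

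SETBP1-D868N 1 alone was high for 3 pseudogenes. Gm9619 was at 30.1 CPM there and at 0.135 to 0.230 CPM in the other five, Gm3222 at 8.34 CPM against 0.505 to 0.864 CPM, and Pgam1-ps2 at 4.40 CPM against 0.551 to 0.904 CPM. SETBP1-D868N 3 was low for interferon-stimulated genes, with Rtp4 at 1.45 CPM against 4.02 and 4.72 CPM in the others of its group. Oasl2 was at 4.38 CPM against 8.23 and 9.20 CPM. Xist (193 to 407 CPM) and Ddx3y (35.5 to 39.2 CPM) were present in all 6 libraries, with Xist highest in luciferase 1.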
